A study of Mus musculus with 10 samples.

Results

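H3K27ac regions far from consensus H3K4me1 were examined in bone marrow-derived mast cells. A consensus region was formed for each mark by joining its overlapping peaks and keeping the stretches in which all lists of the mark had one. The regions examined were the H3K27ac consensus regions on chromosomes 1 to 19 with no H3K4me1 peak of either list across them and no H3K4me1 consensus region within 5000 bp of either edge. There were 4716 of them among 19258 H3K27ac consensus regions on those chromosomes and 19670 on all chromosomes. They made up 24.5% of the 19258 (95% Clopper-Pearson interval 23.9 to 25.1, counting error only, as for all intervals below) and 16.1% of the sequence covered by H3K27ac consensus, or 4.40 of its megabases. The regions were thus chosen by the positions of called peaks of both marks, so the presence of H3K27ac and the distance to H3K4me1 consensus are given as description.

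The study mapped histone marks by chromatin immunoprecipitation and sequencing (ChIP-seq) in order to find putative enhancers, per its design text. It held 3 H3K27ac immunoprecipitates, 2 H3K4me1 immunoprecipitates and 5 matching inputs. The cells were grown from marrow of C57BL/6 mice 6 to 8 weeks old, with no other genotype or treatment named, for 4 weeks with 20 ng/ml of interleukin-3, and per the labels over 99% carried the IgE receptor and Kit. They are mast cells formed in culture, and nothing in the labels said that replicates were separate cultures or animals, so spread between lists may be technical. The immunoprecipitates gave 10457047 to 19513552 filtered tags and the inputs 9433267 to 19265001, and the peak caller's version changed together with the mark.

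Acetylation of lysine 27 on histone H3 is placed by the acetyltransferases p300 and CBP and is found at active promoters and active enhancers. Monomethylation of lysine 4 is placed mainly by KMT2C and KMT2D, marks enhancers whether active or not, and often flanks active promoters, where trimethylation takes its place around the start site. H3K27ac can therefore stand without H3K4me1 on its own nucleosomes while H3K4me1 lies beside it. Positions below are those of mm9. Genes, start sites, markers of the cell type and DNA sequence at these positions were not analysed here, so regions are named by position and promoters were not told from enhancers.

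Far from H3K4me1 consensus did not mean far from every H3K4me1 peak. Of the 4716 regions, 2247, or 47.6% (46.2 to 49.1), had a peak of at least 1 H3K4me1 list within 5000 bp, in stretches that the lists did not share. The other 2469, or 52.4% (50.9 to 53.8), had none. H3K4me1 replicate 1 placed a peak within 5000 bp of 1590 regions and replicate 2 of 1058, and 401 had peaks of both lists that did not join. For 1098 regions, or 23.3% (22.1 to 24.5), an H3K4me1 peak lay within 1000 bp, and for 403, or 8.54% (7.76 to 9.38), there was one within 5000 bp on both sides.

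Single-list H3K4me1 gathered close to these H3K27ac regions. Within 1000 bp of their edges, H3K4me1 regions seen in only 1 list occurred at 130.0 per Mb. The density was 83.0 per Mb at 1000 to 2000 bp, 46.8 at 2000 to 5000 bp and 37.0 at 5000 to 10000 bp, and it was 33.1 per Mb at 20000 to 50000 bp. The density nearest to the regions was thus 3.93 times that at 20000 to 50000 bp. H3K4me1 consensus regions, absent within 5000 bp by the rule, occurred at 30.2 to 31.6 per Mb in the rings beyond it. Around the 4160 H3K27ac regions that had H3K4me1 consensus within 5000 bp but no peak across them, single-list regions went from 155.0 per Mb within 1000 bp to 54.0 per Mb at 20000 to 50000 bp, a ratio of 2.87. H3K4me1 consensus regions around these 4160 went from 273.0 per Mb within 1000 bp to 65.4 per Mb at 20000 to 50000 bp. Around far regions the rule leaves only single-list H3K4me1 within 5000 bp, so the ratios 3.93 and 2.87 are not like for like. No test of the difference between these gradients was run.

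**Figure D1:**
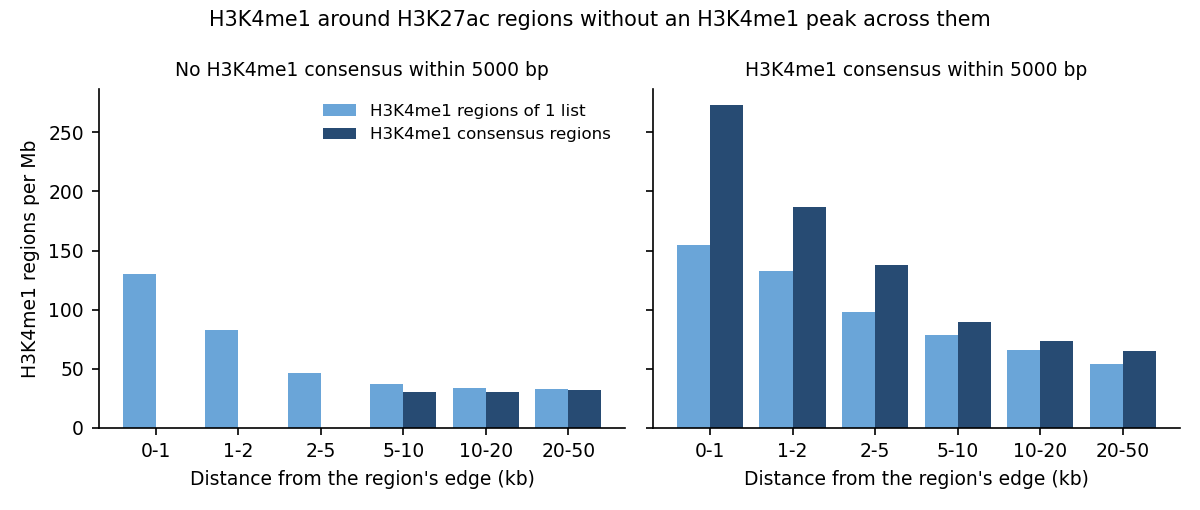
H3K4me1 regions per megabase (vertical axis) by distance from the edge of an H3K27ac region in kb (horizontal axis), for regions with no H3K4me1 consensus within 5000 bp (left, 4716 regions) and with one (right, 4160 regions). Light bars are H3K4me1 regions of 1 list and dark bars H3K4me1 consensus regions; on the left, single-list regions stood at 130.0 per Mb nearest to the edge and at 33.1 per Mb farthest out.

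The single-list H3K4me1 peaks near these regions were somewhat lower and much shorter than those in consensus regions. Fold enrichment, the authors' ratio of the tag pileup at a summit to the local background from the input, had a median of 6.38 for the 1663 such peaks of H3K4me1 replicate 1, against 6.83 for the peaks of that list in consensus regions. In replicate 2 the medians were 5.95 for 1009 peaks and 6.34. Median lengths were 251 against 437 bp in replicate 1 and 318 against 500 bp in replicate 2. A peak entered a consensus region by meeting one of the other list, which a longer peak does more easily. Single-list peaks away from far regions were not compared, so the shortness is not shown to be particular to these places. The H3K27ac regions with a single-list H3K4me1 peak within 5000 bp and those without had medians close to each other. Their H3K27ac folds were 11.1 and 10.9 in H3K27ac replicate 1, 7.89 and 7.70 in replicate 2, and 8.51 and 8.45 in replicate 3, with median lengths of 750 and 745 bp.

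Holding out an H3K4me1 list showed how far absence carried over to a sample that had not been used. When replicate 2 alone set the distances, 4080 H3K27ac regions were far from H3K4me1. In held-out replicate 1, 10.1% (9.21 to 11.1) of these had a peak across them and 39.5% (38.0 to 41.0) had one across or within 5000 bp. When replicate 1 alone set the distances, 3347 regions were far, and held-out replicate 2 had peaks across 6.45% (5.64 to 7.34) and across or within 5000 bp of 26.2% (24.8 to 27.8). Regions that overlapped H3K4me1 in the list that was kept had a held-out peak across them in 89.6% and 81.8% of cases. The share with H3K4me1 across was therefore at most 10.1% for far regions and at least 81.8% for overlapping ones in both lists. A low share was not particular to far regions. Regions with H3K4me1 of the kept list within 5000 bp but not across had a held-out peak across them in 20.2% and 10.7% of cases. They differed more in the wider measure, with a held-out peak across or within 5000 bp in 89.9% and 81.4%.

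Most of the regions were short and simple. Their lengths ran from 234 to 7927 bp with a median of 747 bp and quartiles of 536 and 1108 bp. In 80.4% (79.2 to 81.5) each of the 3 H3K27ac lists had a single peak there. The highest summits of the 3 lists fell within 200 bp of each other in 70.6% (69.3 to 71.9), with a median spread of 98 bp. H3K27ac regions that overlapped H3K4me1 consensus, 7940 in number, had a median length of 1397 bp, a single peak in each list in 51.9% (50.8 to 53.0) and a median summit spread of 201 bp. The 4160 regions with H3K4me1 consensus near but not across were close to the far regions in form, with a median length of 775 bp, a single peak in each list in 80.4% (79.1 to 81.6) and a median summit spread of 112 bp. The part of length in these differences was not tested.

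H3K27ac height varied widely among them. Highest fold in a region ran from 2.47 to 42.9 in replicate 1, with a median of 10.95, from 2.51 to 24.6 in replicate 2, with a median of 7.76, and from 2.56 to 30.5 in replicate 3, with a median of 8.45. The pileups behind these medians were 28.9, 22.0 and 20.8 tags, after the caller's scaling to the smaller library. Lists ordered the regions only in part alike: over the 4716 regions Spearman's rho between lists was 0.427 to 0.474, against 0.460 to 0.529 over the 4160 regions with H3K4me1 consensus near but not across and 0.594 to 0.617 over the 7940 that overlapped it. Regions, not samples, are the points of these correlations, and they share their libraries. Fold also went with length, at a rho of 0.315 to 0.333 over far regions and 0.591 to 0.603 over overlapping ones. Over the 4160 regions it was 0.318 to 0.392. The part of length in the agreement between lists was not tested. In 55.0% (53.6 to 56.4) the highest peak of every list reached a minus log10 q of at least 10. The same share was 54.5% (53.0 to 56.1) for regions with H3K4me1 consensus near but not across. For overlapping regions it was 61.35% (60.3 to 62.4).

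Few of them were among the highest H3K27ac regions of the cells. When the 19258 regions were put in order of fold, averaging the 3 lists' ranks, 5 of the 4716 were among the first 100, a call that took 0.519% of all regions, and 129, or 2.74% (2.29 to 3.24), were among the first 1000, a call that took 5.19% of all. They thus held 12.9% (10.9 to 15.1) of the first 1000 places with 24.5% of the regions. Regions that overlapped H3K4me1 consensus held 60.0% (56.9 to 63.0) of them with 41.2%. In the lower 50% of that order stood 52.7% (51.3 to 54.2) of the far regions and 46.4% (45.3 to 47.5) of the overlapping ones. Regions with H3K4me1 consensus near but not across also stood low, with 53.3% (51.8 to 54.8) of them in the lower 50% and 16.5% (14.2 to 18.9) of the first 1000 places for 21.6% of the regions. The remaining 2442 regions, 12.7% of all, overlapped peaks of 1 H3K4me1 list only. They held 10.6% (8.76 to 12.7) of the first 1000 places, and 50.7% (48.7 to 52.7) of them stood in the lower 50%. Fold rose with length, and this order took no account of length. Median length was 747 bp for far regions and 1397 bp for overlapping ones. The part of length in these shares was not tested.

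The highest of them by mean rank lay on chromosome 5 from 22938859 to 22942175, 3317 bp long, with folds of 38.4, 20.7 and 23.7 in H3K27ac replicates 1, 2 and 3. Its rank among the 19258 regions was 53, 137 and 241, and H3K4me1 consensus began 6109 bp away. The second, on chromosome 18 from 35114497 to 35115435, had folds of 31.1, 20.2 and 26.6 and stood 24653 bp from H3K4me1 consensus, but 2593 bp from a peak of H3K4me1 replicate 2 alone. Chromosome 2 from 23011590 to 23012594 followed with 26.4, 21.3 and 30.5, and with a peak of H3K4me1 replicate 1 577 bp away. Each of these was high in all 3 lists, and all 3 had an H3K4me1 peak of 1 list within 5000 bp.

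Very short regions also reached such heights. Chromosome 6 from 86476192 to 86476573, 382 bp long, had folds of 37.6, 16.4 and 29.2, and the nearest H3K4me1 peak of either list lay 26469 bp away. Chromosome 7 from 74517745 to 74518168, 424 bp long, had 40.6, 16.3 and 26.0, and stood 88096 bp from the next H3K27ac consensus region but 225 bp from a peak of H3K4me1 replicate 1. Chromosome 14 from 49065698 to 49066059, 362 bp long, had 33.4, 17.7 and 22.0, with H3K4me1 consensus 148898 bp and a peak of H3K4me1 replicate 1 23761 bp away. These 3 were lower in rank in replicate 2, at 783, 800 and 477, than in replicate 1, at 63, 29 and 167. The list of the 8 highest closed with chromosome 10 from 98723450 to 98725663, where folds were 27.9, 20.1 and 22.0 and a peak of H3K4me1 replicate 1 lay at 1247 bp. Its last entry, chromosome 1 from 10027412 to 10029362, had 42.9, 24.6 and 17.3. It ranked 16 and 11 in replicates 1 and 2 but 1291 in replicate 3, and the nearest H3K4me1 peak of either list lay 14443 bp away.

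**Figure D2:**
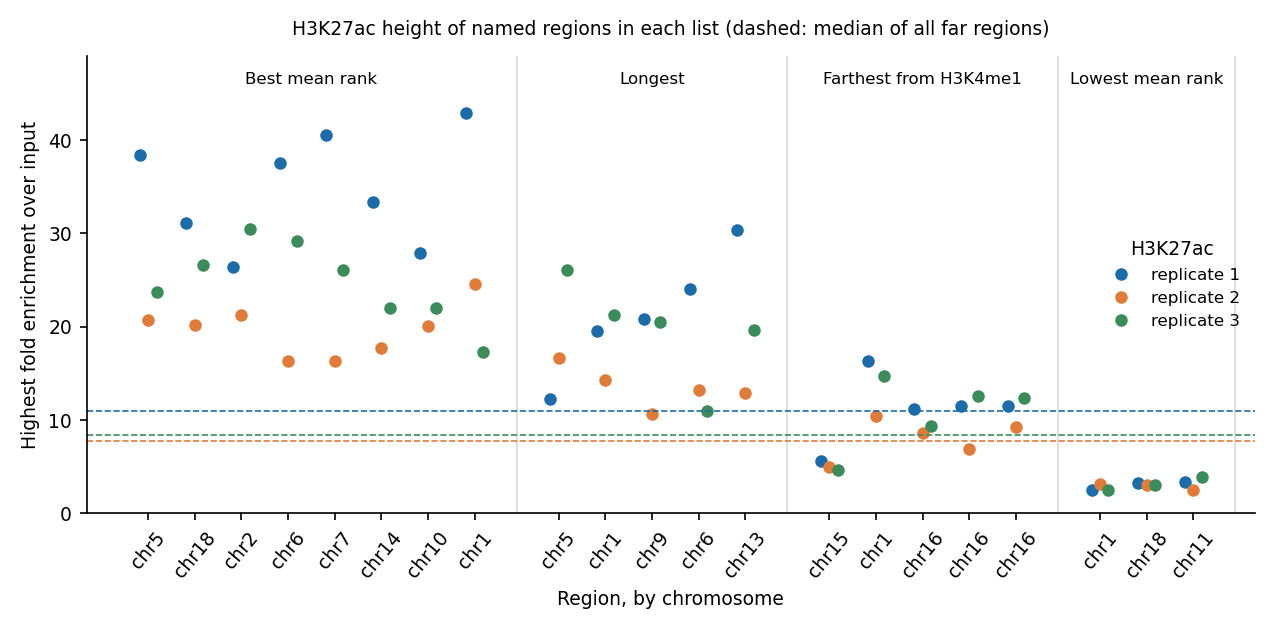
Highest H3K27ac fold enrichment over input (vertical axis) in each of the 3 lists for the regions named by rule, each labelled by its chromosome (horizontal axis). Points are single lists and dashed lines the median of all 4716 regions in each list; all 8 regions with the best mean rank lie above the medians in all 3 lists, and the 3 with the lowest mean rank lie below them.

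The longest regions were not the highest. Chromosome 5 from 75970275 to 75978201, the longest at 7927 bp, had folds of 12.3, 16.7 and 26.1, ranks of 7976, 699 and 110. Chromosome 1 from 69726605 to 69733847, 7243 bp long, had 19.6, 14.3 and 21.2, and chromosome 9 from 92143550 to 92150693, 7144 bp long, had 20.8, 10.7 and 20.5. Next came chromosome 6 from 129130612 to 129137661, where folds were 24.0, 13.2 and 11.0, and chromosome 13 from 4273139 to 4279751, where they were 30.4, 12.9 and 19.6. All 5 stood above the median of the 4716 regions in each list. The longest one had a peak of H3K4me1 replicate 1 at 278 bp and H3K4me1 consensus at 7320 bp.

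Height was compared with that of regions carrying H3K4me1, within each list. Both classes had to hold a peak in all 3 H3K27ac lists, so the comparison speaks only of height above the peak limit. Longer regions have more room to overlap H3K4me1, so regions of like length were also compared. Taken at all lengths, the far regions were slightly lower than the 7940 that overlapped H3K4me1 consensus. Far regions had the medians given above, and overlapping regions had 11.2 in H3K27ac replicate 1, 8.33 in replicate 2 and 9.05 in replicate 3. Averaged over lists, the ratio of far to overlapping was 0.947 ± 0.0242 (SD, n = 3 lists), below 1 in all 3 (exact two-sided sign-flip permutation p = 0.25, the smallest that 3 lists allow). Among regions of 500 to 1500 bp the order was the opposite. There 3190 far regions had medians of 10.9, 7.70 and 8.44, and 3826 overlapping regions had 9.24, 7.03 and 7.65. This ratio was 1.13 ± 0.0464 (SD, n = 3 lists; exact permutation p = 0.25, again the smallest possible), above 1 in all 3 lists.

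The turn with length appeared in each list. For regions under 500 bp the mean ratio over lists was 1.18, and from 1500 to under 2000 bp it was also 1.18, with far regions higher in all 3 lists. From 2000 to under 3000 bp it was 0.997, with far regions higher in 2 of 3 lists, and from 3000 bp upwards, where only 84 far regions stood against 1362 overlapping ones, it was 0.906 and far regions were lower in all 3. Far regions reached 2000 bp in 5.45% (4.82 to 6.14) of cases and overlapping ones in 32.5% (31.5 to 33.5). Against the 4160 regions with H3K4me1 consensus within 5000 bp but not across, the mean ratio was 1.00 ± 0.0160 at all lengths and 1.02 ± 0.0208 for 500 to 1500 bp (SD, n = 3 lists; exact permutation p = 1.0 and 0.5). Against these, too, the far regions from 3000 bp upwards were lower in all 3 lists, at 0.865 ± 0.0572 of their height (SD, n = 3 lists, exact permutation p = 0.25). Against the 2442 regions that overlapped peaks of 1 H3K4me1 list only, the mean ratio was 0.986 ± 0.0181 at all lengths. It was 1.07 ± 0.0263 for 500 to 1500 bp (SD, n = 3 lists; exact permutation p = 0.5 and 0.25).

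**Figure D3:**
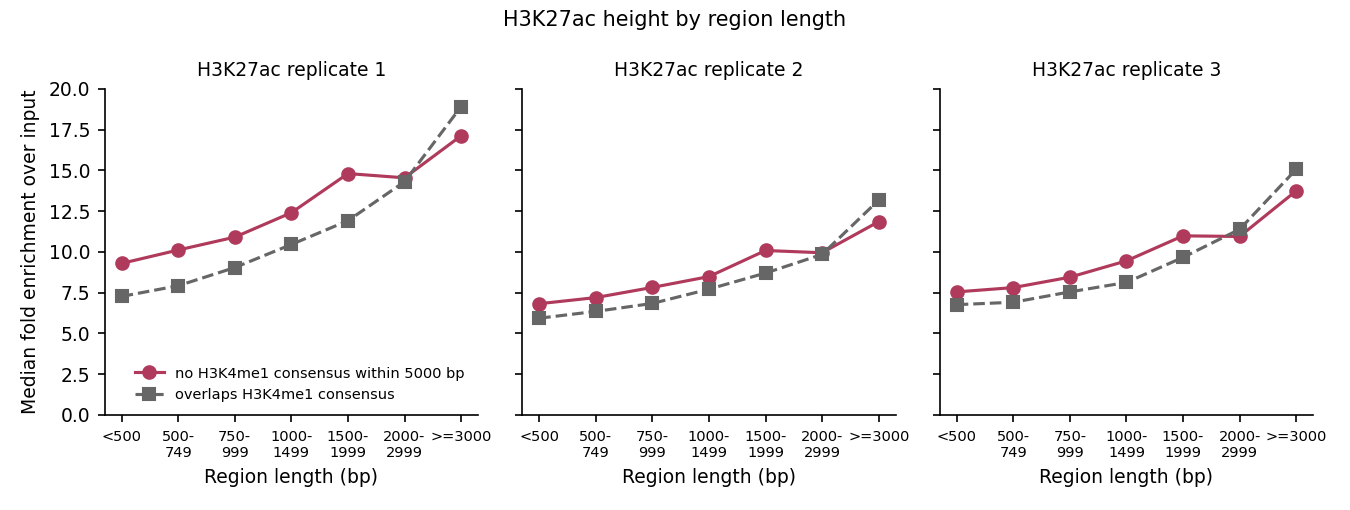
Median H3K27ac fold enrichment over input (vertical axis) by length class of the region in bp (horizontal axis), 1 panel for each H3K27ac list, for regions far from H3K4me1 consensus (circles) and regions overlapping it (squares). Far regions lie above overlapping regions in every class under 2000 bp and below them in the class from 3000 bp upwards, in all 3 lists.

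Detection in an H3K27ac list that had not been used to choose the regions was nearly as frequent as for regions with H3K4me1. With replicate 1 held out, 94.3% (93.6 to 94.9) of 5242 far regions had a peak in it, against 94.9% (94.4 to 95.3) of overlapping regions. With replicate 2 held out the shares were 85.9% (84.9 to 86.8) and 89.8% (89.1 to 90.4), and with replicate 3 held out 81.1% (80.1 to 82.0) and 85.8% (85.1 to 86.5). The difference from overlapping regions was -3.08 ± 2.18 percentage points (SD, n = 3 lists), negative in all 3, with an exact two-sided sign-flip permutation p of 0.25, the smallest possible. Regions with H3K4me1 consensus near but not across were detected in 93.8%, 87.5% and 81.8% of cases, below the far regions with replicate 1 held out and above them with replicates 2 and 3, and that difference was not tested.

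Distance to H3K4me1 consensus had a long range. The median was 25559 bp, 20.8% (19.7 to 22.0) of the regions had H3K4me1 consensus within 10 kb, and 69.2% (67.9 to 70.5) had it within 50 kb. Height changed little with this distance. In the 1179 nearest regions, at a median of 7607 bp, the median folds were 11.2, 8.01 and 8.56 in H3K27ac replicates 1, 2 and 3, and in the 1179 farthest, at a median of 132699 bp, they were 10.6, 7.60 and 8.29. The farthest regions were lower in all 3 lists, by far less than the quartiles of either set differ. The nearest H3K4me1 peak of any list was 19460 bp from them at the median.

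Some regions stood in wide stretches without H3K4me1. No peak of either list lay within 50 kb of 447 regions, or 9.48% (8.66 to 10.3), within 100 kb of 208, or within 1000 kb of 10. The most remote, on chromosome 15 from 16244414 to 16244920, was 3140957 bp from the nearest H3K4me1 peak and low in all lists, with folds of 5.63, 5.02 and 4.67. Chromosome 1 from 103798563 to 103800120, 3090381 bp from H3K4me1, had 16.3, 10.4 and 14.8, above the median of the 4716 regions in each list. The other 3 of the 5 most remote lay together on chromosome 16. They ran from 81366393 to 81367608 with folds of 11.5, 9.22 and 12.4, from 81437038 to 81437792 with 11.5, 6.85 and 12.6, and from 81438008 to 81438866 with 11.2, 8.61 and 9.35. Each of them had another H3K27ac consensus region within 345 bp, so the remote stretch held H3K27ac in close neighbours.

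Many far regions had no H3K27ac neighbour at a distance. With neighbouring H3K27ac consensus regions put in 1 cluster wherever less than 2.5 times the 5000-bp limit separated them, 2020 far regions, or 42.8% (41.4 to 44.3), stood alone, against 18.2% (17.3 to 19.1) of the regions that overlapped H3K4me1 and 22.1% (20.8 to 23.4) of those with H3K4me1 within 5000 bp. Distance to H3K4me1 was part of the rule, so these shares are a description. Another 1583 far regions formed 718 clusters made of far regions alone, and 1113 shared 781 clusters with other H3K27ac regions. At the same time 36.4% (35.0 to 37.8) had another H3K27ac consensus region within 500 bp, against 46.7% (45.6 to 47.8) of overlapping regions. Lone regions and those with such a neighbour had like heights, with median folds of 11.2 and 11.1 in replicate 1, 7.66 and 7.92 in replicate 2, and 8.46 and 8.56 in replicate 3.

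The close neighbours were at most 500 bp apart by choice, so a narrow gap was set in advance. There were 735 pairs of adjoining far regions up to 500 bp apart, with a median of 218 bases between them and quartiles of 168 and 299. No peak of any H3K27ac list lay in any of the 735 gaps. The same held for 1399 of the 1402 gaps between regions that overlapped H3K4me1. Peaks that touched a partner were joined to it, so these gaps were likely to be empty by construction. The highest summits of the 2 partners were 804 bp apart at the median, and the median pair spanned 1751 bp. The higher partner had 1.41 times the fold of the lower at the median, a ratio above 1 by its construction, against 1.45 for pairs that overlapped H3K4me1. The same partner was higher in all 3 lists in 48.4% (44.8 to 52.1) of pairs and in 54.4% (51.7 to 57.0) of overlapping pairs. Such gaps also parted regions with H3K4me1, where 1402 pairs of regions overlapping H3K4me1 had a median of 196 bases and quartiles of 153 and 261. Joining peaks that lay less than 1000 bp apart gave 3235 far regions in place of 4716, and 76.3% of these stood alone.

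**Figure D4:**
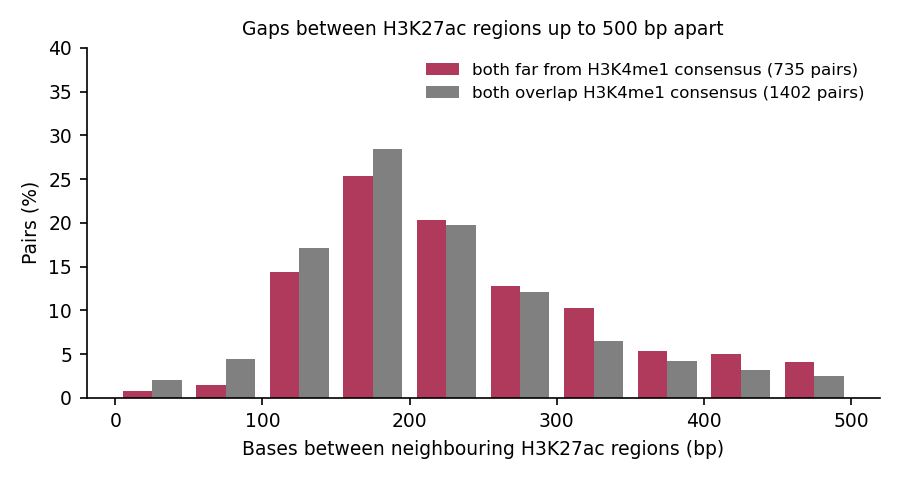
Percent of pairs (vertical axis) by the number of bases between neighbouring H3K27ac consensus regions up to 500 bp apart (horizontal axis, bins of 50 bp), for 735 pairs of far regions and 1402 pairs that overlap H3K4me1 consensus. In both, the bin from 150 to 200 bases holds the most pairs.

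A few places held runs of far regions, parted by no more than the distance used for clusters and with no other H3K27ac consensus region between them. Runs of 5 or more numbered 8 of 5, 2 of 6 and 1 of 8 regions, and 2648 regions had no far neighbour in this sense. The longest run lay on chromosome 13 from 23622257 to 23644175, where 8 regions covered 6453 of 21919 bp at 65005 bp or more from H3K4me1 consensus, though a peak of 1 H3K4me1 list lay within 319 bp. Their folds ran from 5.84 to 15.4 in H3K27ac replicate 1, from 4.45 to 10.3 in replicate 2 and from 4.79 to 9.66 in replicate 3, so the whole run stayed below the regions of best rank. On chromosome 7 from 95570058 to 95584584, 6 regions covered 12945 of 14527 bp, with folds of up to 21.8, 10.9 and 19.2 and the nearest H3K4me1 peak of either list at 29129 bp. On chromosome 6 from 134866611 to 134883763, 6 regions covered 7822 of 17153 bp and reached 23.2, 15.5 and 19.5, with a peak of 1 H3K4me1 list at 723 bp. Of the 8 runs of 5 regions, the 2 that covered the most sequence were chromosome 9 from 124017120 to 124043235 and chromosome 3 from 20131529 to 20143828. They reached 15.9, 8.83 and 16.5, and 24.4, 21.7 and 14.9, respectively, with a peak of 1 H3K4me1 list at 1334 and 1533 bp.

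Chromosomes differed in the share of H3K27ac regions that were far from H3K4me1. It was highest on chromosome 13, at 34.9% (31.7 to 38.2), and on chromosome 3, at 32.8% (29.7 to 35.9), and lowest on chromosome 11, at 19.1% (17.2 to 21.0), and on chromosome 15, at 19.3% (16.6 to 22.2). The share was lower where H3K4me1 consensus was denser, with a Spearman rho of -0.868 over 19 chromosomes, a relation that the rule favours since a denser mark comes nearer. The number of far regions per Mb had a rho of 0.491 with the same density, so far regions themselves were more numerous per Mb where H3K4me1 was denser. All chromosomes share the same libraries. Far regions themselves were spread more evenly than either mark. Their number per Mb ran from 1.53 to 2.86, a ratio of 1.87, while all H3K27ac regions ran from 5.67 to 15.0, a ratio of 2.65, and H3K4me1 consensus regions from 10.7 to 34.4, a ratio of 3.21. The rule bears on this evenness as well, since the share it kept was lower where H3K4me1 was denser.

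**Figure D5:**
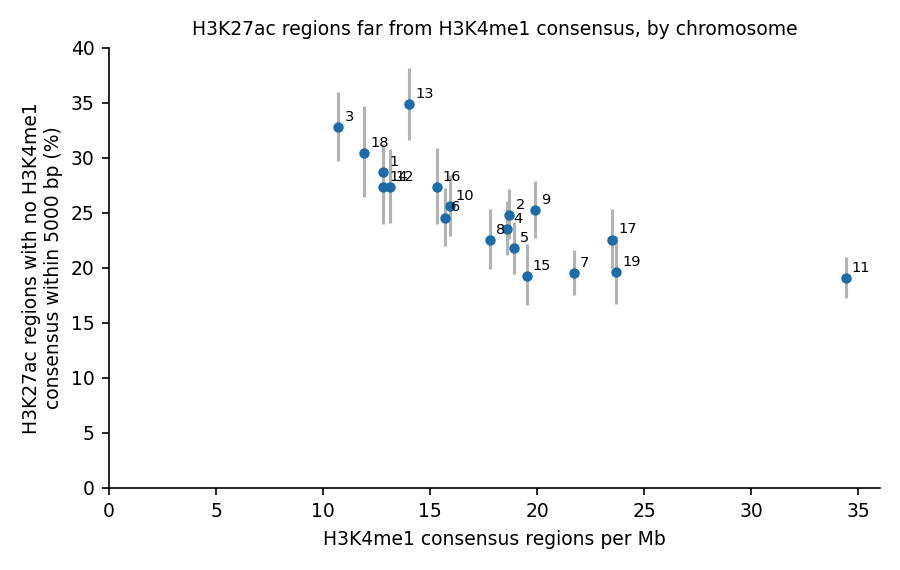
Percent of the H3K27ac consensus regions of a chromosome that had no H3K4me1 peak across and no H3K4me1 consensus within 5000 bp (vertical axis, bars are 95% Clopper-Pearson intervals), against H3K4me1 consensus regions per Mb (horizontal axis), for chromosomes 1 to 19 by number. Chromosome 13 is highest at 34.9% and chromosome 11, with the densest H3K4me1, lowest at 19.1%.

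The far regions just beyond the 5000-bp limit and the regions just within it, which were not counted as far, are given as values. The nearest beyond it were chromosome 2 from 134927715 to 134928173 at 5006 bp, with folds of 6.90, 4.04 and 6.36, chromosome 4 from 131816049 to 131816923 at 5007 bp, with 18.5, 13.4 and 12.0, and chromosome 10 from 117229976 to 117230640 at 5014 bp, with 17.4, 11.6 and 18.0. The nearest within it were at 4990, 4989 and 4984 bp, with folds of 7.51, 7.29 and 8.56, of 12.4, 4.54 and 9.46, and of 8.89, 5.78 and 6.77.

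The lowest regions by fold had high pileup. Chromosome 1 from 197067800 to 197068116 had the lowest fold of all 19258 regions in replicates 1 and 3, with 2.47, 3.11 and 2.56 in replicates 1, 2 and 3, but the highest pileup of all far regions, with 243.4, 297.0 and 265.2 scaled tags. Chromosome 18 from 13107600 to 13107952 had folds of 3.27, 3.04 and 3.02 at pileups of 126.6, 139.0 and 113.7, and chromosome 11 from 3040483 to 3041050 had folds of 3.34, 2.51 and 3.85 at pileups of 119.4, 71.0 and 79.4. Pileup over fold, a measure of the local background in the input, was 98.6, 95.5 and 103.6 for the first of these, while its median over the 4716 regions was 2.50, 2.71 and 2.29. It was at least 10 in all 3 lists for 4 far regions and for 4 regions that overlapped H3K4me1. The part of the high input in these peaks was not tested.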

How the data were processed

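Peak lists of 3 H3K27ac and 2 H3K4me1 samples were used. Per the file headers, the authors ran MACS2 on every immunoprecipitate separately, with its matching input as control, at a q-value limit of 0.001 and with 1 tag kept per position. Versions were 2.1.1.20160309 for H3K27ac and 2.0.10.20130306 for H3K4me1. The build is mm9, per the submitters' processing notes, with the aligner and read filters not given in the sources used here. Every deposited list holds the pileup, a signal of extended tags scaled to the smaller library, the fold enrichment, a ratio of pileup to local input background, and the −log10 p-value and q-value. Narrow calling of broad marks, and a fragment length of 255 bp in H3K4me1 replicate 2 against 199 to 210 bp elsewhere, can affect lengths and gaps. Where no peak is listed, the q-value limit was missed and no more is known.

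Overlapping or touching peaks were joined, and overlap counted from 1 bp. Distance is the difference in position between edges. A region's height is its highest fold in a list, compared only within that list. The regions and lists were chosen with earlier results of these data known. Named were the 8 best and 3 lowest by mean rank, the 5 longest, the 5 most remote, the 5 runs of most regions, with ties broken by covered length, and the 3 nearest to the limit on each side. Stitching joined H3K27ac regions parted by up to 2.5 times the 5000-bp limit, and leaving out each list, stricter peaks and other limits were tried as alternatives. The planned shares at start sites, gene lists and CpG content needed an annotation or genome of mm9 and were not run. Software versions were Python 3.11.15, NumPy 2.4.6, pandas 2.3.3, SciPy 1.17.1 and Matplotlib 3.10.9. The code was tested on simulated data, and bedtools 2.31.1 gave the same 4716 regions.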

Additional observations from a re-analysis of the deposited data

Results flagged for a closer look

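Chromosome X lay outside the comparisons above, yet 283 of its 380 H3K27ac consensus regions, or 74.5% (95% Clopper-Pearson interval 69.8 to 78.8), passed the same distances to H3K4me1. The highest share among chromosomes 1 to 19 was 34.9%. On those chromosomes the share was lower where H3K4me1 consensus was denser. The density on X is not given here, and its part in the X share was not tested. These X regions had a median length of 812 bp and median folds of 10.6, 7.45 and 8.11 in H3K27ac replicates 1, 2 and 3, against 747 bp and 10.9, 7.76 and 8.45 for the regions on chromosomes 1 to 19. They were set apart here because they appear in data that no comparison used.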

How the results depend on the processing

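No paired analysis was possible because the replicate numbers do not pair H3K27ac with H3K4me1 samples and each comparison was made within an H3K27ac list. The height ratio stayed below 1 at all lengths (0.90 to 0.973) and above 1 for 500 to 1500 bp (1.09 to 1.16), and the held-out difference stayed negative (-4.66 to -3.24), under all alternatives run, with p never below 0.25. The number of far regions was 2469 with the distance taken to a peak of either H3K4me1 list. Their share of H3K27ac regions, 24.5%, was then 12.8%. Keeping peaks whose minus log10 q reached 5 or 10 gave 25.9% and 35.8%. It was 25.5% when 2 H3K27ac lists sufficed, 30.8% and 19.4% with limits of 2000 and 10000 bp, and 26.1% where only an overlap of 0.5 of the shorter interval counted. The share with single-list H3K4me1 within 5000 bp, 47.6%, was 42.7% when minus log10 q had to reach 10 and 40.2% with peaks joined across 1000 bp. The share standing alone, 42.8%, was 45.0% and 53.7% when minus log10 q had to reach 5 or 10, 30.9% when 2 H3K27ac lists sufficed, 37.8% and 47.7% with limits of 2000 and 10000 bp, 49.6% with the distance to any peak, 76.3% with peaks joined across 1000 bp, and 50.2% and 32.9% with stitching across 5000 and 25000 bp. The cause of these shifts was not tested. With each list left out in turn, the number ran from 3347 to 6088, the share from 17.4% to 25.1%, the share with single-list H3K4me1 from 47.5% to 48.5%, without a value when an H3K4me1 list was left out, and the share alone from 34.6% to 47.3%, while the height ratio ran from 0.941 to 0.973 and, for 500 to 1500 bp, from 1.09 to 1.14. Of the 4716 regions, 3126 remained without H3K4me1 replicate 2, 3658 without replicate 1, and 4679 to 4707 when an H3K27ac list was left out. Leaving out regions of high input background, chosen after the data were seen, gave 4712 regions. Alternatives for start sites and CpG content were not run. Few lists limit both parts, since 3 H3K27ac lists cannot give a p below 0.25, and 2 H3K4me1 lists leave single-list peaks uncertain.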
